A study of Rattus norvegicus with 6 samples.

Results

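The genes described here code for 6 sinusoidal uptake transporters of the hepatocyte, Slco1a4, Slco1a1, Slco1b2, Slco2b1, Slc10a1 and Slc22a7. Their probes were those other than controls whose RefSeq accession belongs to one of these genes (Slco1a4 is also written Slco1a2, and Slco1b2 also Slco1b3), which gave 9 of the 61657 probes on the array. They are 6 of the 15284 genes that the array's accessions name. Slco1a4 had 3 probes, Slco2b1 had 2, and the other 4 genes had 1 each. Total liver RNA came from male Sprague-Dawley rats bought at 5 weeks of age and hybridised to 1-colour arrays, 1 array per animal. There were 3 rats dosed daily with phenolphthalein (1000 mg per kg), a pH indicator and former laxative, and 3 rats dosed with corn oil, the vehicle. For the duration of dosing the labels name both 28 days and 9 weeks. The phenolphthalein arrays were on slide 2 and the corn oil arrays on slide 1, each group with its own scan date. Every difference below is therefore one between slides and scan dates as well as treatments, and these cannot be told apart.

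Uptake from blood is the first step by which the liver clears bile acids, hormones and drugs. The Slco genes code for organic anion transporting polypeptides, which carry amphipathic anions such as bile acids, steroid conjugates and many drugs into the hepatocyte without using the sodium gradient. Slc10a1 codes for Ntcp, which takes up conjugated bile acids together with sodium, and Slc22a7 for Oat2, an organic anion transporter. In rat liver, Slco1a4 is a known target of PXR, one of the nuclear receptors that sense drugs.

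Signals were log2 of the scanner's processed intensity relative to the 75th percentile of each array, which was 578, 562 and 551 on phenolphthalein replicates 1 to 3 and 622, 636 and 595 on corn oil replicates 1 to 3. All 9 probes were well above background on 6 of 6 arrays, and 0 of their spots were saturated or marked as outliers. Of the 10 hepatocyte markers, 10 were tested and 0 passed, with log2 fold changes of -0.13 to 0.10. Over the 11434 tested genes, each by its brightest probe, 0.0525% passed, 14.2% had an unadjusted p under 0.05 and 51.8% had a log2 fold change above 0. In limma's moderated test over 39411 probes, 19 probes (0.0482%) had a Benjamini-Hochberg adjusted p under 0.05, and Cyp2b1, the phenobarbital-inducible P450, was among them, with a log2 fold change of 3.61 ± 0.20 (SE). With 1 array left out in turn, 0 to 5 probes passed. P-values rest on the spread between the 3 rats of a group, which limma also draws toward a value common to all tested probes. For probes with little spread, such as those of Slco1a1 and Slc22a7, this widens the SE and the interval.

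None of the 9 uptake transporter probes passed the adjusted threshold in limma, and 2 of 9 had an unadjusted p under 0.05, a limit that 13.2% of all tested probes met. Among the 6 genes, Slco1a4 had the highest fold changes, at 1.37- to 1.51-fold over its 3 probes, without passing. Slco1a1, Slco1b2, Slc10a1, Slc22a7 and the brighter Slco2b1 probe had log2 fold changes between -0.08 and 0.18, with 95% intervals that stayed within 2-fold in both directions. The dimmer Slco2b1 probe had a log2 fold change of -0.69, with an interval of -1.51 to 0.14. The log2 fold change was above 0 for 7 of 9 probes, against 53.4% of all tested probes, and the median was 0.09, against 0.02 over all tested probes. Phenolphthalein arrays all lay above corn oil arrays for 2 of 9 probes, against 11.8% of all tested probes, and all below for 0 of 9, against 9.24%. In the unscaled signals the groups overlapped for those 2 probes, the brightest of Slco1a4 and that of Slc10a1. With 9 probes, 3 of them of the same gene, these shares are counts and were not tested.

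**Figure D1:**
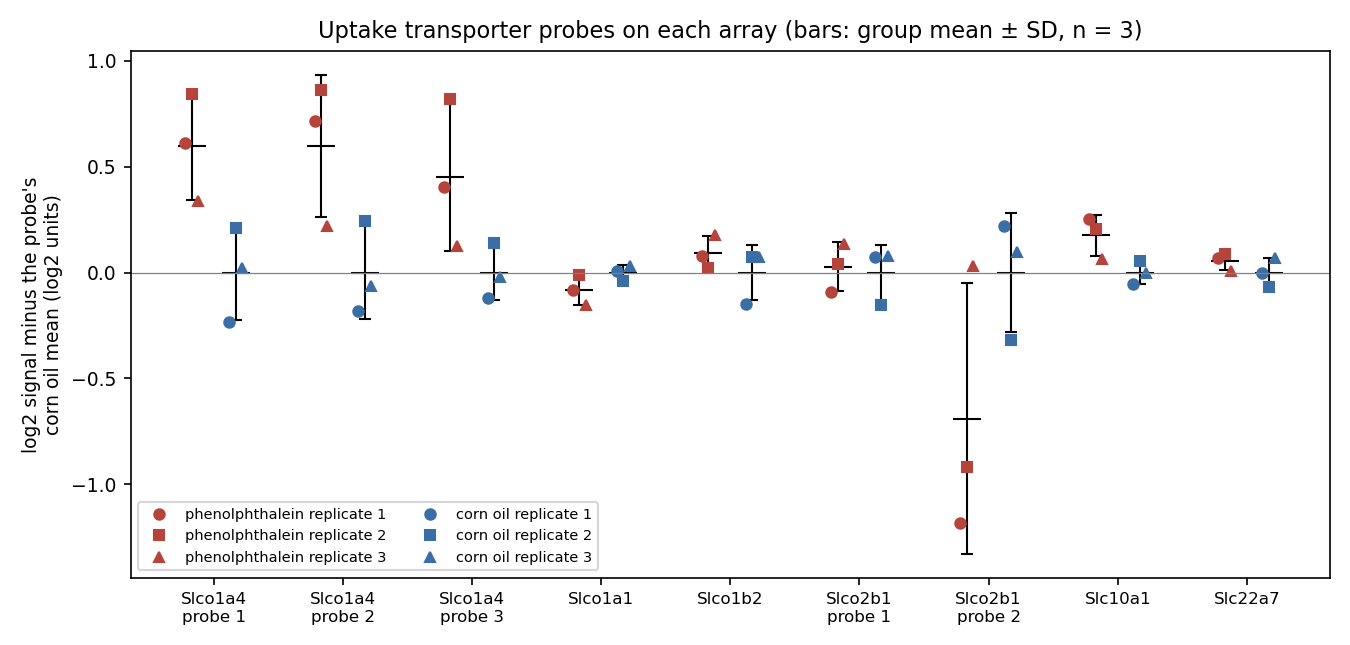
Log2 signal of each uptake transporter probe on each array, minus the probe's corn oil mean (vertical axis, log2 units), for phenolphthalein (red, left of each pair) and corn oil (blue, right). Markers show replicates and black bars the group mean ± SD (n = 3), with probes of 1 gene numbered from the brightest. On phenolphthalein replicates 1 and 2 the 3 Slco1a4 probes sit above all corn oil arrays, and Slco2b1 probe 2 sits below all of them. On phenolphthalein replicate 3 the 3 Slco1a4 probes sit above their corn oil means, but by less.

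Slco1a4, also called Oatp2, carries bile acids, thyroid hormones and cardiac glycosides such as digoxin. Its brightest probe, A_64_P003997, read 6.16, 6.40 and 5.89 log2 units on the phenolphthalein arrays, against 5.32, 5.76 and 5.57 on the corn oil arrays. The groups did not overlap, and the lowest phenolphthalein array, replicate 3, stood 0.13 above the highest corn oil array, replicate 2. Its log2 fold change was 0.60 ± 0.17 (SE, 95% interval 0.17 to 1.03), with an unadjusted p of 0.0139 and a limma adjusted p of 0.279. On the linear scale the probe's signal was 71.7 ± 12.5 times the 75th percentile with phenolphthalein and 47.2 ± 7.15 times with corn oil (SD, n = 3 each).

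The second Slco1a4 probe, A_42_P708480, read 4.18, 4.33 and 3.68 with phenolphthalein, against 3.28, 3.71 and 3.40 with corn oil. Here phenolphthalein replicate 3 lay just under corn oil replicate 2, so the groups overlapped by 1 array on each side. The log2 fold change was 0.60 ± 0.20 (SE), with an unadjusted p of 0.0255 and a limma adjusted p of 0.322. The dimmest probe, A_44_P203532, read 3.23, 3.65 and 2.95 with phenolphthalein, against 2.71, 2.97 and 2.81 with corn oil. It overlapped in the same way, and its log2 fold change was 0.45 ± 0.19 (SE, limma adjusted p = 0.386). Without phenolphthalein replicate 2, which was the highest array on all 3 probes, this value was 0.27, while the other 2 probes gave 0.48 and 0.47.

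The 3 probes are named by the same RefSeq accession and were read in the same 6 animals, so they are repeated measures and not separate evidence. They moved alike from array to array. After each was centred on its own mean, the gap between the highest and lowest of the 3 was 0.05 to 0.24 log2 units on phenolphthalein arrays and 0.03 to 0.19 on corn oil arrays, within an array-to-array range of 0.94 to 1.08. Their mean was 4.50 ± 0.31 with phenolphthalein and 3.95 ± 0.19 with corn oil (SD, n = 3 each). The difference of 0.55 gave a two-sided exact permutation p of 0.1, the smallest that 3 arrays against 3 can give. Of all tested probes, 4.33% had a log2 fold change at least as high as the lowest of the 3.

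Cyp2b1 read 8.36, 8.22 and 7.62 log2 units on phenolphthalein replicates 1 to 3, against 4.41, 4.55 and 4.42 on corn oil replicates 1 to 3. Phenolphthalein replicate 3 was the lowest of the treated arrays both for Cyp2b1 and for all 3 Slco1a4 probes, while replicate 1 was the highest for Cyp2b1 and replicate 2 for Slco1a4. Replicate 3 was also the lowest treated array for Slco1a1, Slc10a1 and Slc22a7, so this likeness is not particular to Slco1a4. The share of all probes with this order was not counted. Among the genes with a complete set of 6 arrays, those whose centred profile lay closest to the brightest Slco1a4 probe were Ppcs and Ctps1, with root mean square differences of 0.09 and 0.11 log2 units over 6 arrays, against a root mean square of 0.36 for Slco1a4 about its own mean. Ppcs had a log2 fold change of 0.61 and Ctps1 one of 0.60. They were picked from all genes for their likeness, which is therefore a description.

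Slco1a1, also called Oatp1, is a close paralog that carries bile acids and steroid conjugates. It read 3.98, 4.05 and 3.91 with phenolphthalein, against 4.07, 4.03 and 4.10 with corn oil. The groups overlapped on phenolphthalein replicate 2. Its log2 fold change was -0.08 ± 0.08 (SE, 95% interval -0.28 to 0.11, limma adjusted p = 0.682), which as a fold runs from 0.825 to 1.08. Its nearest profiles were those of Cspp1 and Araf, at 0.02 log2 units each, against a root mean square of 0.06 for Slco1a1 itself.

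Slco1a4 and Slco1a1 lie on chromosome 4 with no other Slco1 gene between them in the RefSeq gene order of GRCr8. The difference between their probes within an array, brightest Slco1a4 probe minus Slco1a1 probe, was 2.18, 2.34 and 1.97 log2 units with phenolphthalein, against 1.25, 1.73 and 1.48 with corn oil. The groups did not overlap, and the mean difference was 0.68 log2 units larger with phenolphthalein (two-sided exact permutation p = 0.1, the smallest possible). With 3 arrays against 3 this test cannot go below that p, so the difference is given as a description. The groups were already apart on this Slco1a4 probe alone. Slco1a1 varied little (SD 0.07 with phenolphthalein and 0.03 with corn oil, n = 3 each), so the difference is not separate evidence.

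Their promoter windows are shown because these paralogs lie in the same gene cluster. Each window runs from 250 bases before to 50 bases after the RefSeq start in build GRCr8, on the minus strand, at chr4:176495797-176496096 for Slco1a4 and chr4:176681943-176682242 for Slco1a1. Sequences read 5′ to 3′ along the gene, and capitals mark the stretches of at least 8 bases that are identical and unbroken in a global alignment of the pair.
Slco1a4: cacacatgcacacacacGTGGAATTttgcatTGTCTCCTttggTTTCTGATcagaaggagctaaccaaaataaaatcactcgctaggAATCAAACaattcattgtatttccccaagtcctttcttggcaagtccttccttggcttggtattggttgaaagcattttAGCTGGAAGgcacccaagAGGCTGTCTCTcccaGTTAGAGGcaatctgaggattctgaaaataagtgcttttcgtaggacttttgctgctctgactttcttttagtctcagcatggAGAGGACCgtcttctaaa
Slco1a1: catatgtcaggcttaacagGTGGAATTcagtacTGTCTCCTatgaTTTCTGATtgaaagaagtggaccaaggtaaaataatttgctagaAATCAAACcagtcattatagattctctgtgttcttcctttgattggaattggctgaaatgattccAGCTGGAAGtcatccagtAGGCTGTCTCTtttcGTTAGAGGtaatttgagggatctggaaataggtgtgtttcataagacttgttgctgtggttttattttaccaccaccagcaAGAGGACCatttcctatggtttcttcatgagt
In this alignment 206 bases were identical, or 68.7% of the window, against 46.0% to 51.7% for the other pairs among the 6 promoters. The capitals form 8 stretches with 68 bases in all, the longest of 11 bases.

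Letters of 3 short motifs were searched in the windows on both strands, with matches counted separately and allowed to overlap. GTTAAT, a half-site of HNF1, a liver transcription factor, was in the windows of Slco1b2 and Slc10a1 and in 7.45% of 33469 rat promoters. AGGTCA, a nuclear receptor half-site, was found once in Slco1b2 and 2 times in Slc10a1 and occurred in 16.2% of promoters. AGTTCA, a variant of it, was found once each in Slco1b2 and Slc22a7 and occurred in 14.5% of promoters. The windows of Slco1a4, Slco1a1 and Slco2b1 held none of these letters. A match is a description of the sequence and not a bound site, and a window without a match says nothing of sites outside it.

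The Slco1 genes of that stretch of chromosome 4 are, in order and leaving out other entries, Slco1c1, Slco1b2, Slco1a4, Slco1a1, Slco1a3, Slco1a6 and Slco1a5, of which Slco1c1 and Slco1a3 were not tested because their probes were above background on at most 1 of 6 arrays. Slco1b2, also called Oatp1b2, is a liver-restricted transporter of bile acids, bilirubin and statins. It read 5.18, 5.13 and 5.28 with phenolphthalein, against 4.95, 5.18 and 5.18 with corn oil. Corn oil replicate 1 was the lowest array, and the other 5 spanned 0.15 log2 units, with the groups overlapping. The log2 fold change was 0.09 ± 0.10 (SE, 95% interval -0.15 to 0.34, limma adjusted p = 0.717), and it was 0.02 without corn oil replicate 1. The profiles nearest to it were those of Mtrf1l and Fgfrl1, at 0.01 and 0.03 log2 units over 6 arrays, against 0.10 for Slco1b2 about its mean.

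Slco1a6 and Slco1a5 are further paralogs of Slco1a4. Slco1a6 read -0.91, -0.36 and -0.91 with phenolphthalein, against -1.30, -1.04 and -1.29 with corn oil. The groups did not overlap, and its log2 fold change was 0.48 ± 0.18 (SE, unadjusted p = 0.0362, limma adjusted p = 0.35). Slco1a5, chosen after its values were seen, read 0.75, 1.07 and 0.63 with phenolphthalein, against 0.49, 0.60 and 0.69 with corn oil, a log2 fold change of 0.23 ± 0.14 (SE, limma adjusted p = 0.518). On these 2 probes, as on the 3 of Slco1a4, phenolphthalein replicate 2 was the highest array and corn oil replicate 1 the lowest. The probe letters were not used here, so how far probes of these paralogs read each other's transcript was not tested, and the signal of each is uncertain to that extent.

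**Figure D2:**
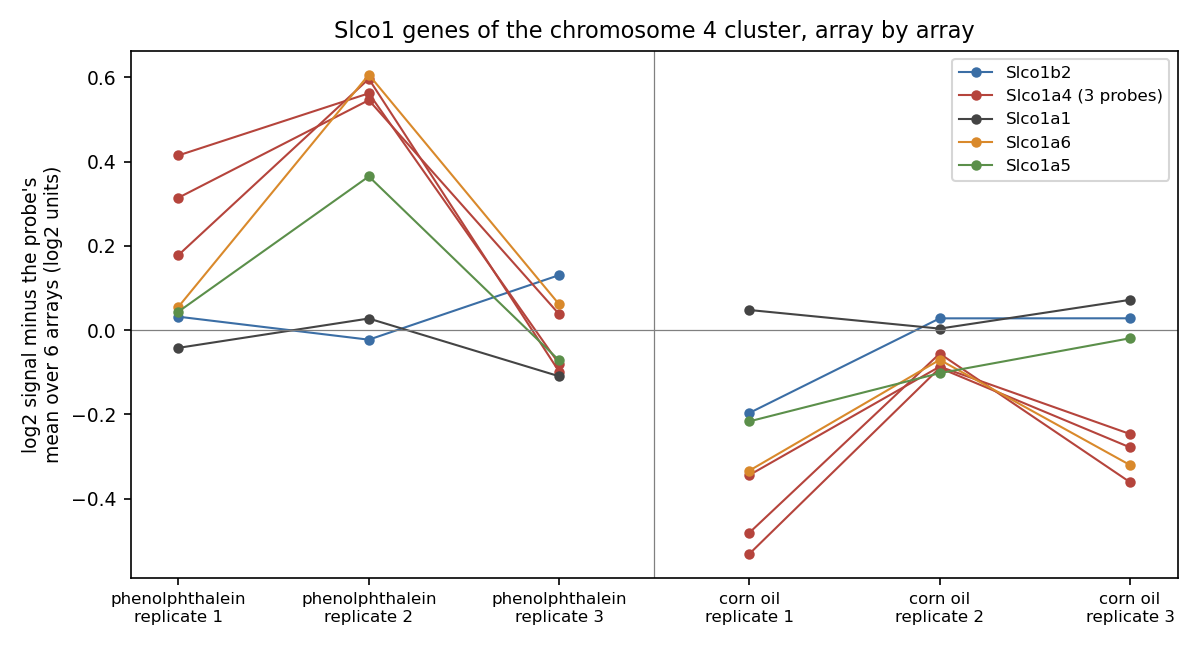
Log2 signal minus the probe's mean over 6 arrays (vertical axis, log2 units) for the tested Slco1 probes of the chromosome 4 cluster on each array (horizontal axis, phenolphthalein left, corn oil right). Lines join the points of 1 probe within a group and imply no order of animals. The 3 Slco1a4 probes and those of Slco1a6 and Slco1a5 peak on phenolphthalein replicate 2, while Slco1a1 and Slco1b2 deviate from their means by at most 0.11 and 0.20.

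Slco2b1 carries steroid sulfates and many drugs and is expressed in several tissues besides liver. Its 2 probes, both named by the same RefSeq accession, disagreed. The brighter one, A_44_P128007, read 2.35, 2.49 and 2.58 with phenolphthalein, against 2.52, 2.30 and 2.53 with corn oil. The groups overlapped throughout, and the log2 fold change was 0.03 ± 0.11 (SE, 95% interval -0.24 to 0.29, limma adjusted p = 0.929). The dimmer one, A_44_P491450, read 0.74, 1.01 and 1.96 with phenolphthalein, against 2.15, 1.61 and 2.03 with corn oil.

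On the dimmer Slco2b1 probe, phenolphthalein replicates 1 and 2 lay below all corn oil arrays, while phenolphthalein replicate 3 lay among them. The log2 fold change was -0.69 ± 0.34 (SE, unadjusted p = 0.0868, limma adjusted p = 0.439), and it was -1.05 without phenolphthalein replicate 3 and -0.44 without phenolphthalein replicate 1. The dimmer minus the brighter probe was -1.61, -1.48 and -0.62 with phenolphthalein, against -0.37, -0.69 and -0.50 with corn oil, so the groups overlapped, and the shift of -0.72 had a two-sided exact permutation p of 0.2. With the mean of its probes in place of the brighter one, Slco2b1 had a log2 fold change of -0.33. The spot of neither probe lay in an array column with a run of dim spots. Pcgf1 had a profile near that of the brighter probe, at 0.02 log2 units over 6 arrays, against 0.10 for the probe about its mean.

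Markers of Kupffer cells, the resident macrophages of the liver, had negative log2 fold changes in 10 of 10 tested members, with a median of -0.64. Of them 0 passed in limma over all probes and 9 had an unadjusted p under 0.05, against 14.2% of all tested genes. Their summed linear signal was 140 to 184 times the 75th percentile with phenolphthalein and 189 to 271 times with corn oil, and all 10 were well above background on 6 of 6 arrays. Phenolphthalein replicate 3 was the highest treated array for 10 of 10, as it was for the dimmer Slco2b1 probe. It was also the highest treated array for the brighter Slco2b1 probe and for Slco1b2, with log2 fold changes of 0.03 and 0.09. This likeness is therefore not particular to the dimmer probe, and the share of all probes with this order was not counted. The part of these cells in the Slco2b1 value was not tested, and in bulk liver fewer cells of a type and less RNA per cell cannot be told apart. No marker of endothelial, stellate, bile duct, lymphoid or blood cells passed in limma (0 called of 6, 8, 6, 5 and 4 tested, of which 1, 1, 3, 4 and 0 had an unadjusted p under 0.05, against 14.2% of all tested genes), and the median log2 fold changes of these lists were -0.13, -0.19, 0.31, -0.50 and -0.04.

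Slc10a1, the gene of the bile acid transporter Ntcp, read 6.85, 6.81 and 6.67 with phenolphthalein, against 6.55, 6.66 and 6.60 with corn oil. Every phenolphthalein array lay above every corn oil array, by 0.01 log2 units between the nearest pair. Before scaling the groups overlapped, at intensities of 66944, 63073 and 56024 with phenolphthalein, against 58236, 64220 and 57630 with corn oil. The log2 fold change was 0.18 ± 0.09 (SE, 95% interval -0.04 to 0.39), with an unadjusted p of 0.0932 and a limma adjusted p of 0.449. That is 1.13-fold, with an interval of 0.973 to 1.31, so a 2-fold change in either direction lies outside it. With quantile normalization the log2 fold change of Slc10a1 was 0.066 (limma adjusted p = 0.793). Vhl and Slc35e1 had the nearest profiles, at 0.03 log2 units each over 6 arrays, against 0.11 for Slc10a1 about its mean.

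Slc22a7, the gene of Oat2, read 5.25, 5.27 and 5.19 with phenolphthalein, against 5.18, 5.11 and 5.25 with corn oil. The groups overlapped, and the log2 fold change was 0.06 ± 0.08 (SE, 95% interval -0.14 to 0.25, limma adjusted p = 0.795). The nearest profiles, of Ntpcr and Eif2b5, differed from it by 0.02 log2 units each over 6 arrays, against 0.05 for Slc22a7 about its mean.

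**Figure D3:**
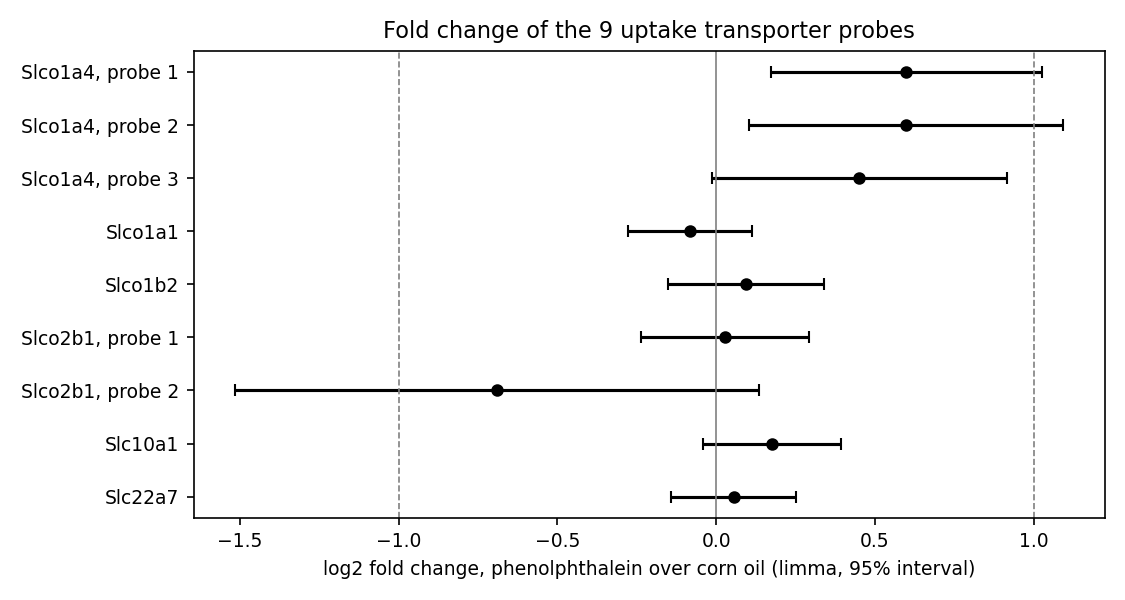
Log2 fold change of the 9 probes, phenolphthalein over corn oil (horizontal axis), with limma's 95% interval as bars, dashed lines at 2-fold in each direction and probes of 1 gene numbered from the brightest. The intervals of Slco1a1, Slco1b2, Slco2b1 probe 1, Slc10a1 and Slc22a7 lie inside the dashed lines and include 0, and those of Slco1a4 probes 1 and 2 lie above 0.

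Other uptake and basolateral transporters of liver and related carriers formed a list of 33 genes, of which 31 were on the array and 25 were tested. Of these, 0 passed in limma, 14 had a log2 fold change above 0 and 11 one below, and the median was 0.11, against 0.01 over the 11434 genes with 1 probe each. There were 4 of 25 with an unadjusted p under 0.05, near the 14.2% of all tested genes, 2 with a log2 fold change above 0 and 2 below. Without phenolphthalein replicate 1 the median was 0.047. Slc10a6, a carrier of sulfated steroids, read -3.49, -3.48 and -4.05 with phenolphthalein, against -2.99, -2.84 and -2.96 with corn oil. Its log2 fold change was -0.75 ± 0.17 (SE, limma adjusted p = 0.218), while its other probe gave -0.08 ± 0.21 (SE). Slco3a1, an organic anion transporter of many tissues, had a log2 fold change of -0.50 ± 0.13 (SE, limma adjusted p = 0.259), from a dim probe at -3.98 ± 0.12 with phenolphthalein and -3.48 ± 0.21 with corn oil (SD, n = 3 each). Next by p was Slco1a6, given above.

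The list of export pumps held 13 genes, most of which move bile acids, drugs and lipids out of the hepatocyte. It includes Atp8b1, a membrane lipid flippase and not an export pump. All 13 were tested, 0 passed in limma and 1 had an unadjusted p under 0.05, against 14.2% of all tested genes. The log2 fold change was above 0 for 10 and below for 3, with a median of 0.16. Without phenolphthalein replicate 1 or 3 this median was 0.080 or 0.063, and without corn oil replicate 1 or 3 it was 0.10. Abcb1a, a P-glycoprotein, had a log2 fold change of 0.88 ± 0.36 (SE, limma adjusted p = 0.378), Abcc6 one of -0.20 ± 0.08 (adjusted p = 0.379) and Abcb11, the bile salt export pump, one of 0.23 ± 0.14 (adjusted p = 0.528). Abcb1a was dim, at -2.53 ± 0.16 with phenolphthalein and -3.41 ± 0.73 with corn oil (SD, n = 3 each).

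The 23 regulators of these transporters were all tested and 0 passed in limma, with 1 at an unadjusted p under 0.05, against 14.2% of all tested genes, 13 above 0, 10 below and a median of 0.06. Without phenolphthalein replicate 1, 2 or 3 this median was 0.033, 0.013 or 0.16, and without corn oil replicate 2 or 3 it was 0.023 or 0.024. Rxra, the shared partner of many nuclear receptors, had a log2 fold change of 0.29 ± 0.11 (SE, limma adjusted p = 0.355). Nr1i2, which codes for PXR, had one of 0.33 ± 0.17 (SE, adjusted p = 0.452) by its brighter probe and 0.14 ± 0.16 by the other, and Ahr one of 0.79 ± 0.43 (SE, adjusted p = 0.481). Foxa2, chosen after its values were seen, had a log2 fold change of -2.86 ± 2.84 (SE) that rests on 1 array, since it read 2.61, 3.38 and -7.35 with phenolphthalein, against 2.78, 1.74 and 2.69 with corn oil.

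**Figure D4:**
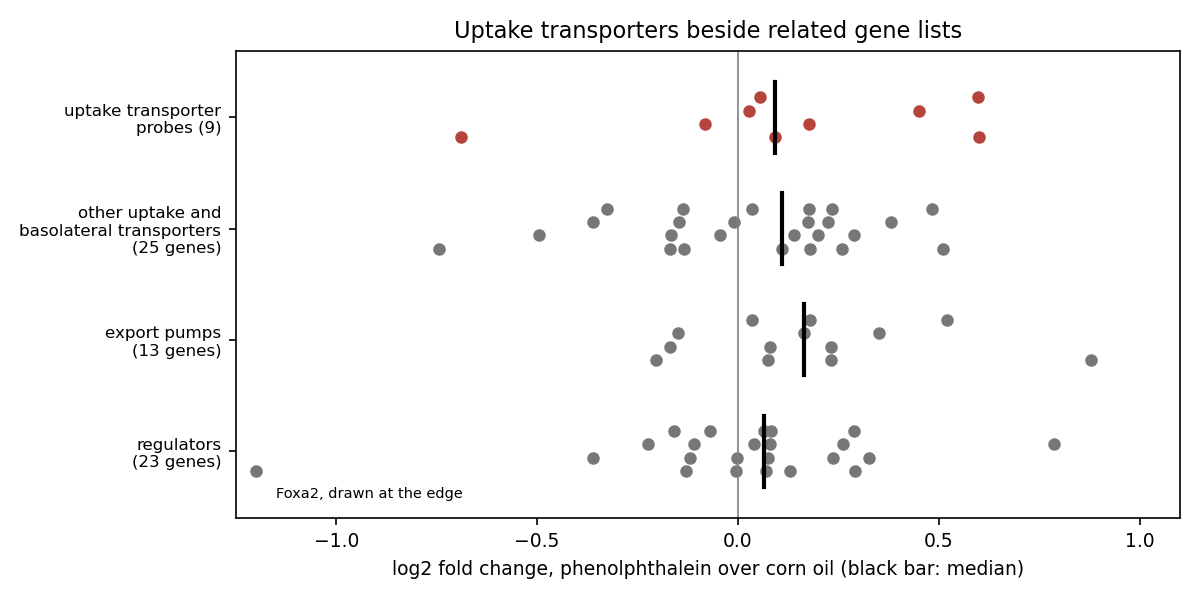
Log2 fold change, phenolphthalein over corn oil (horizontal axis), of the 9 uptake transporter probes (red) and of the tested genes of 3 related lists (grey, 1 probe per gene), with black bars at the medians and Foxa2, at -2.86, drawn at the left edge. The medians lie between 0.06 and 0.16, and in each row points fall on both sides of 0.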

How the data were processed

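Liver RNA of 6 rats was hybridised to 1-colour Agilent arrays, 1 per animal. The authors' deposited scanner files give each spot's intensity with its background subtracted and spatial trend removed, on each array alone. Feature Extraction made them, in version 10.7 by the submitters' processing notes and 10.7.1.1 by the headers. In the authors' deposited value table this intensity is divided by 1 factor per array, constant to within 0.00624% for spots above 500, on a linear scale, not centred and in the same direction, with column medians of 0.0955, 0.0941 and 0.096 for phenolphthalein and 0.0984, 0.101 and 0.102 for corn oil. The files' other marks, deposited by the authors as 0 or 1, flag outliers, saturation and spots well above background.

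Log2 signals were shifted by the 75th percentile of each array. Spots marked as outliers were set missing, and the filter kept probes with 3 or more arrays well above background. Each was fitted in limma 3.58.1 (R 4.3.3), phenolphthalein minus corn oil, with Benjamini-Hochberg adjustment over all 39411 probes. Signals of different probes are not comparable as levels. Probes were named through RefSeq accessions of GRCr8 (27460 named 1 gene, 34197 none), and RefSeq promoter windows matched 6 of 6 genes. In lists, the brightest probe stood for a gene. The fit was tested on simulated data. The members, lists and tests were chosen with earlier results of these data known. Named genes were all members, the 3 smallest p-values of each list, Cyp2b1, and the 2 genes nearest in profile to each member, of which 1 is not reported here. Alternatives were other background, scaling, filter, probe, prior, marked-spot and array-column choices, the authors' values, each array left out, and a replicate block. Normexp used the median spot signal. The number of arrays limits the precision.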

Additional observations from a re-analysis of the deposited data

How the results depend on the processing

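No uptake transporter probe passed the adjusted threshold in limma under any of the 19 alternatives, against 2 at an unadjusted p under 0.05 in the values reported. The log2 fold change of the brightest Slco1a4 probe ran from 0.45 to 0.73 over them, with limma adjusted p from 0.197 to 0.503, and each of the other Slco1a4 probes was above 0 in the 17 alternatives that gave it a value (the per-gene fits do not). Values with no clear direction turned sign. The brighter Slco2b1 probe was -0.011 with quantile normalization and ran from -0.047 to 0.088 without 1 array. The mean of both Slco2b1 probes, -0.33, is no value of the brighter probe, since it includes the dimmer one at -0.69. Slc22a7 was -0.0051 with quantile normalization. The count of 19 called probes became 0 without a filter on dim probes, 7 with the brightest probe per gene, 6 with the mean per gene, 12 with named probes alone, 0 to 5 without 1 array and 0 with the replicate block. Fewer probes or arrays were tested in all of these but the first and the last, whose cause was not tested. The median of the other uptake transporters was 0.0078 with quantile normalization, 0.19 with a median shift, 0.073 with the mean per gene and 0.047 to 0.12 without 1 array. That of the export pumps was 0.080 with the mean per gene and 0.063 to 0.23 without 1 array, and that of the regulators 0.0076 with quantile normalization, 0.14 with a median shift, 0.0084 with the mean per gene and 0.013 to 0.16 without 1 array. A median shift moves the log2 fold changes of all probes by the same amount. The median over all tested probes was 0.097 with it, against 0.018 in the values reported. The cause of the other changes was not tested. Deviations of same-numbered arrays from their group means correlated at -0.01, 0.02 and 0.01 over the tested probes. No broad pattern over the probes shared by replicate number was therefore seen. The check cannot see a shift common to all probes, does not speak for single probes and cannot show that the animals were unpaired. With 3 arrays per group, an exact test of 1 value cannot go below p = 0.1.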
